A study of Xenopus tropicalis with 15 samples.

Results

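The genes described here make, break down and respond to retinoic acid, a signal that animals derive from vitamin A. They were chosen by symbol, and all 10 symbols, lrat, rdh10, dhrs3, aldh1a2, aldh1a3, cyp26a1, cyp26b1, cyp26c1, rara and rarg, were found among the 34192 gene models of the quantification. They correspond to 11 models, because rara has a model of 488 bases and one of 2327 bases. All 11 had enough counts to be tested, as did 18823 of all models. The lowest estimated count of any of the 11 in any library was 16, for the short rara model at 0 hpa.

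Retinol is stored as an ester by the acyltransferase Lrat, or oxidised to retinaldehyde by Rdh10. Dhrs3 turns retinaldehyde back into retinol, and the aldehyde dehydrogenases of the Aldh1a family oxidise it to retinoic acid. The Cyp26 cytochromes hydroxylate retinoic acid and so clear it. Retinoic acid acts by binding receptors such as Rara and Rarg, which sit on DNA as partners of the RXR receptors. In vertebrate embryos the tailbud is kept poor in retinoic acid by Cyp26 enzymes, in zebrafish retinoic acid is made in regenerating fins, and tadpoles of some frogs that are given retinoids after tail amputation grow limbs at the stump.

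Paired-end RNA sequencing was run on tail tissue of wild-type Xenopus tropicalis tadpoles, with 5 groups of 3 libraries made from total RNA. The posterior part of the tail was cut off 3 days after fertilisation, at NF stage 41. For the 0 hpa group (0 hours post amputation), about 250 µm of untreated tissue in front of the cut was taken. For the rest, a like length of regenerate was taken at 24 hpa from tadpoles kept at 23 °C in 0.1% DMSO, in 10 µM IWR-1, in 0.5 µM echinomycin or in 2-methoxyestradiol (2ME) at 5 µM. IWR-1 lowers Wnt signalling by blocking tankyrase. Echinomycin binds DNA and keeps HIF1, the hypoxia factor, from its sites, while 2ME disrupts microtubules and reduces the HIF1A protein. The treatment labels of the IWR libraries count upwards with the replicate (IWR-1, IWR-2, IWR-3), but the design text has IWR-1 only, and all were taken as such. The labels do not say whether the compound groups also carried DMSO, or how many tadpoles a library holds.

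Totals of estimated counts ranged from 17.3 to 23.4 M per library. Libraries of the same group correlated at 0.9837 to 0.9896 in log2 CPM (across genes, which are no replicates). What a replicate number stands for is not given in the labels, so the p-values speak for the spread of these samples alone, which may be technical. Time, position along the tail and DMSO differ together between 0 hpa and 24 hpa and cannot be told apart. Every list of tissue markers was present in every group, with no marker at 0 in any of them, but their levels moved with the groups. The summed level of 10 striated muscle models was 15973 to 18012 CPM at 0 hpa, 1266 to 1652 with DMSO, 1766 to 2807 with 2ME, 3759 to 4566 with echinomycin and 3495 to 3949 with IWR-1. That of 8 leukocyte models was 96.3 to 109, 307 to 328, 173 to 187, 416 to 506 and 327 to 351 CPM in the same order, and that of 9 epidermis models 13124 to 14182, 14728 to 17357, 12449 to 13177, 15658 to 16140.4 and 9215 to 10295 CPM. In the same order, 8 notochord models summed to 4062 to 4312, 1766 to 1801, 1272 to 1485, 3982 to 5090.0 and 1769 to 1820.4 CPM, and 8 mesenchyme and fin fold models to 20954 to 21585, 10584 to 11364, 7954 to 8744, 14482 to 15942 and 10042 to 10782 CPM. Such sums follow their most abundant genes. From 0 hpa to DMSO col2a1 went from 3795 to 1550 CPM, but 4 of the 8 notochord models were called higher and 4 lower (test below). Of the mesenchyme models 2 were called higher and 6 lower, with col1a1 going from 17515 to 9502 CPM. Of the epidermis models krt12.5 went from 10769 CPM with DMSO to 5563 with IWR-1, where 1 model was called higher and 5 lower. At 0 hpa, 8 erythroid models summed to between 1680.2 and 7007 CPM, 8 neuron models to between 225 and 258, 7 spinal cord progenitor models to between 113 and 128, 8 endothelium models to between 169.7 and 174, and 7 melanophore and neural crest models to between 311 and 339. In the 24 hpa groups the sums of these lists lay lower, at 53.3 to 210.3, 91.7 to 207, 42.1 to 66.0, 44.6 to 96.0 and 28.4 to 64.2 CPM. Not every member did: from 0 hpa to DMSO 2 neuron models were called higher and 5 lower, and gap43 went from 25.1 to 41.4 CPM. Of the spinal cord progenitor models 0 were called higher and 5 lower. The part of these shifts in the results that follow was not tested. In bulk tissue, fewer cells of a type and less RNA per cell cannot be told apart.

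Levels are given as CPM, counts scaled to the library total and by TMM factors, with n = 3 libraries per group in the order of their numbers and means ± SD. A gene is said to rise or fall where the adjusted p of edgeR's quasi-likelihood test, with Benjamini-Hochberg adjustment over all 18823 models, was under 0.05, and log2 ratios are given ± SE. The comparison of DMSO tissue at 24 hpa with 0 hpa asks what differs between regenerate and the tissue in front of a fresh cut. Of the 11 models, 5 rose (lrat, aldh1a2, aldh1a3, cyp26c1 and rarg), 1 fell (the long rara model) and 5 were not called. Across all models 63% were called, 32.2% as higher and 30.8% as lower, so 6 called of 11 is near the background. With upper-quartile factors 5 of the 11 were called higher and 3 lower.

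Each compound was then set against the DMSO group, which asks what differs at 24 hpa between tails kept in a compound and in DMSO. Whether HIF1 or Wnt signalling was blocked was not tested. The doses differ, and the 3 comparisons share the DMSO libraries. With 2ME 4 of the 11 models fell (aldh1a2 and all 3 cyp26 genes) and none rose, against 30.5% of all models called, 14% higher and 16.5% lower. At an unadjusted p under 0.05 edgeR had 0 higher and 5 lower with 2ME, DESeq2 called 0 and 3, and limma 1 and 3, the higher one being rdh10. With echinomycin 6 fell (lrat, rdh10, aldh1a2, cyp26a1, cyp26c1 and rarg) and none was called higher, against 51.6% of all models, 24.6% higher and 27% lower. At an unadjusted p under 0.05 there were 2 higher and 6 lower there. Upper-quartile factors gave 2 and 5, RLE factors 1 and 6, no scaling factor 2 and 4, DESeq2 1 and 6, and limma 3 and 4. With IWR-1 5 rose (rdh10, cyp26a1, cyp26b1 and both rara models) and 3 fell (lrat, cyp26c1 and rarg), against 42.3% of all models, 19.9% higher and 22.4% lower.

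The balance of higher and lower calls over all models depended on the scaling. It was 2634 higher and 3115 lower for 2ME, 4631 and 5078 for echinomycin and 3748 and 4212 for IWR-1. Without a scaling factor it became 4546 and 1598, 6312 and 3449, and 5715 and 2297, with the median log2 ratio of all models moved by 0.14, 0.15 and 0.16. Upper-quartile factors gave 5846 and 3907 for echinomycin and moved its median by 0.10. Small ratios against DMSO, of about this size, are therefore tied to the choice of scaling, and the plot of log2 ratios shows which members lie well beyond it. The limma alternative used the authors' CPM table, without TMM factors computed here. Its medians for the receptor and cofactor list below were 0.25, 0.22 and 0.30, and 0.25, 0.22 and 0.30 without a scaling factor. The main test gave 0.11, 0.076 and 0.14. Other lists lay further apart, such as the posterior progenitor list with echinomycin (-0.11 and -0.23). Calls lost both by limma and without a scaling factor are therefore not lost in 2 independent ways.

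**Figure D1:**
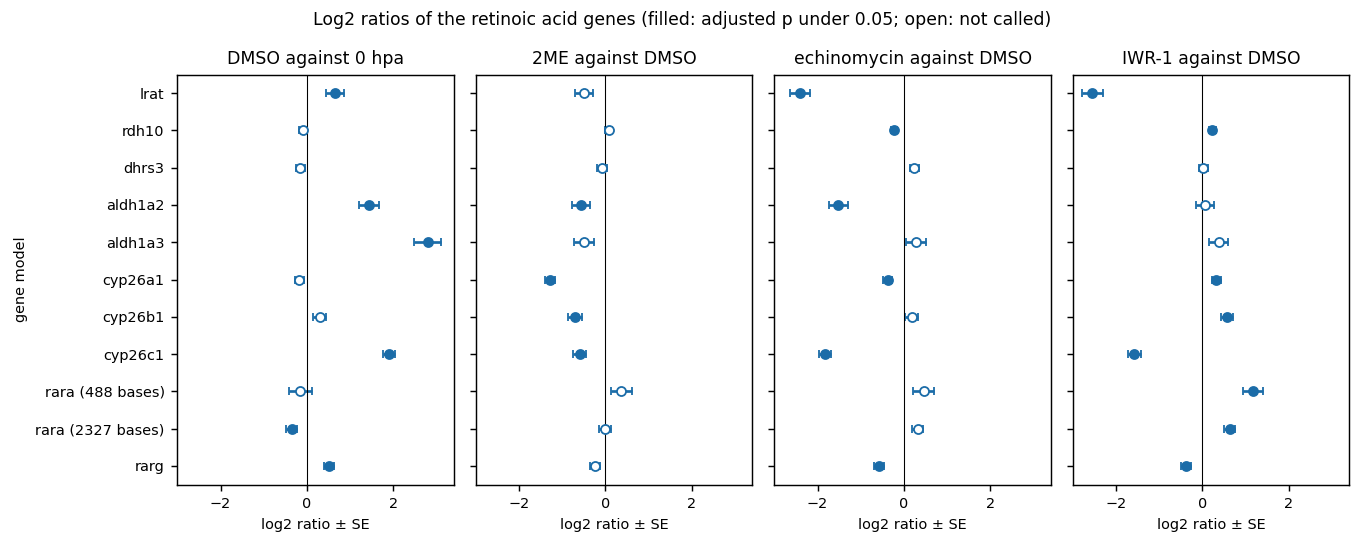
Log2 ratio (x axis) of each of the 11 retinoic acid gene models (y axis) in DMSO against 0 hpa and in each compound against DMSO, with points at the fitted ratio, bars of ± SE, and filled points for an adjusted p under 0.05. The points far from 0 are aldh1a3, cyp26c1 and aldh1a2 in the first panel and cyp26a1 with 2ME. With echinomycin they are lrat, cyp26c1 and aldh1a2, and with IWR-1 lrat, cyp26c1 and the short rara model.

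The gene of a retinoic acid hydroxylase, cyp26c1, had the widest range in CPM of the 11 models. It was at 59.3, 61.9 and 65.2 CPM at 0 hpa and at 210.3, 234 and 249.8 CPM with DMSO. It was at 153, 139 and 166 CPM with 2ME, at 45.9, 84.9 and 65.0 CPM with echinomycin and at 77.6, 82.0 and 73.4 CPM with IWR-1. The DMSO libraries lay above every other library, the 2ME libraries came next, and the echinomycin libraries lay on both sides of those at 0 hpa. From 0 hpa to DMSO cyp26c1 rose 3.73-fold (log2 ratio 1.90 ± 0.15, adjusted p = 7.85e-09). Against DMSO it fell by 0.60 ± 0.14 on the log2 scale with 2ME (adjusted p = 0.00419), by 1.82 ± 0.15 with echinomycin (5.71e-08) and by 1.58 ± 0.14 with IWR-1 (4.61e-07). Echinomycin and 0 hpa differed by a log2 ratio of 0.07 ± 0.15 (adjusted p = 0.699), and IWR-1 and 0 hpa by 0.32 ± 0.15 (0.0718), which was not called although their libraries did not overlap.

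A second hydroxylase gene, cyp26a1, is an early retinoic acid target in vertebrate embryos. It was at 31.8, 35.8 and 38.5 CPM at 0 hpa and at 31.3, 34.8 and 27.7 CPM with DMSO. It was at 11.3, 12.3 and 14.8 CPM with 2ME, at 21.8, 24.6 and 25.8 CPM with echinomycin and at 39.6, 41.5 and 36.1 CPM with IWR-1. The 2ME libraries were the lowest of all 15, and those at 0 hpa and with DMSO overlapped. With 2ME it fell 2.44-fold below DMSO (log2 ratio -1.29 ± 0.11, adjusted p = 9.28e-07). The smaller fall with echinomycin (-0.38 ± 0.11, adjusted p = 0.00721) was no longer called without a scaling factor (0.0818), by limma (0.102) or without DMSO replicate 2 (0.0640). The rise with IWR-1 (0.32 ± 0.11, adjusted p = 0.0214) was lost without DMSO replicate 3 (0.0887), without IWR-1 replicate 1 (0.0501) and without IWR-1 replicate 2 (0.0872). DMSO against 0 hpa gave -0.18 ± 0.11 (adjusted p = 0.158), which was called with upper-quartile factors (-0.27, 0.0335) and without DMSO replicate 2 (-0.28, 0.0494).

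The remaining hydroxylase gene, cyp26b1, was at 91.3, 56.3 and 53.7 CPM at 0 hpa, where replicate 1 stood above the other 2. It was at 72.4, 85.1 and 88.6 CPM with DMSO and at 50.6, 52.0 and 48.5 CPM with 2ME. Its levels were 78.5, 105 and 96.3 CPM with echinomycin and 114, 129 and 121 CPM with IWR-1. The 2ME libraries were the lowest of all and the IWR-1 libraries the highest. Against DMSO cyp26b1 fell with 2ME (log2 ratio -0.70 ± 0.15, adjusted p = 0.00255) and rose with IWR-1 (0.57 ± 0.15, adjusted p = 0.00566), and with echinomycin the ratio was 0.18 ± 0.15 (0.323). DMSO against 0 hpa gave 0.29 ± 0.15 (adjusted p = 0.103), and without 0 hpa replicate 1 it gave 0.56 (0.000365). It was also called with no filter on low counts (0.31, adjusted p = 0.0477).

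**Figure D2:**
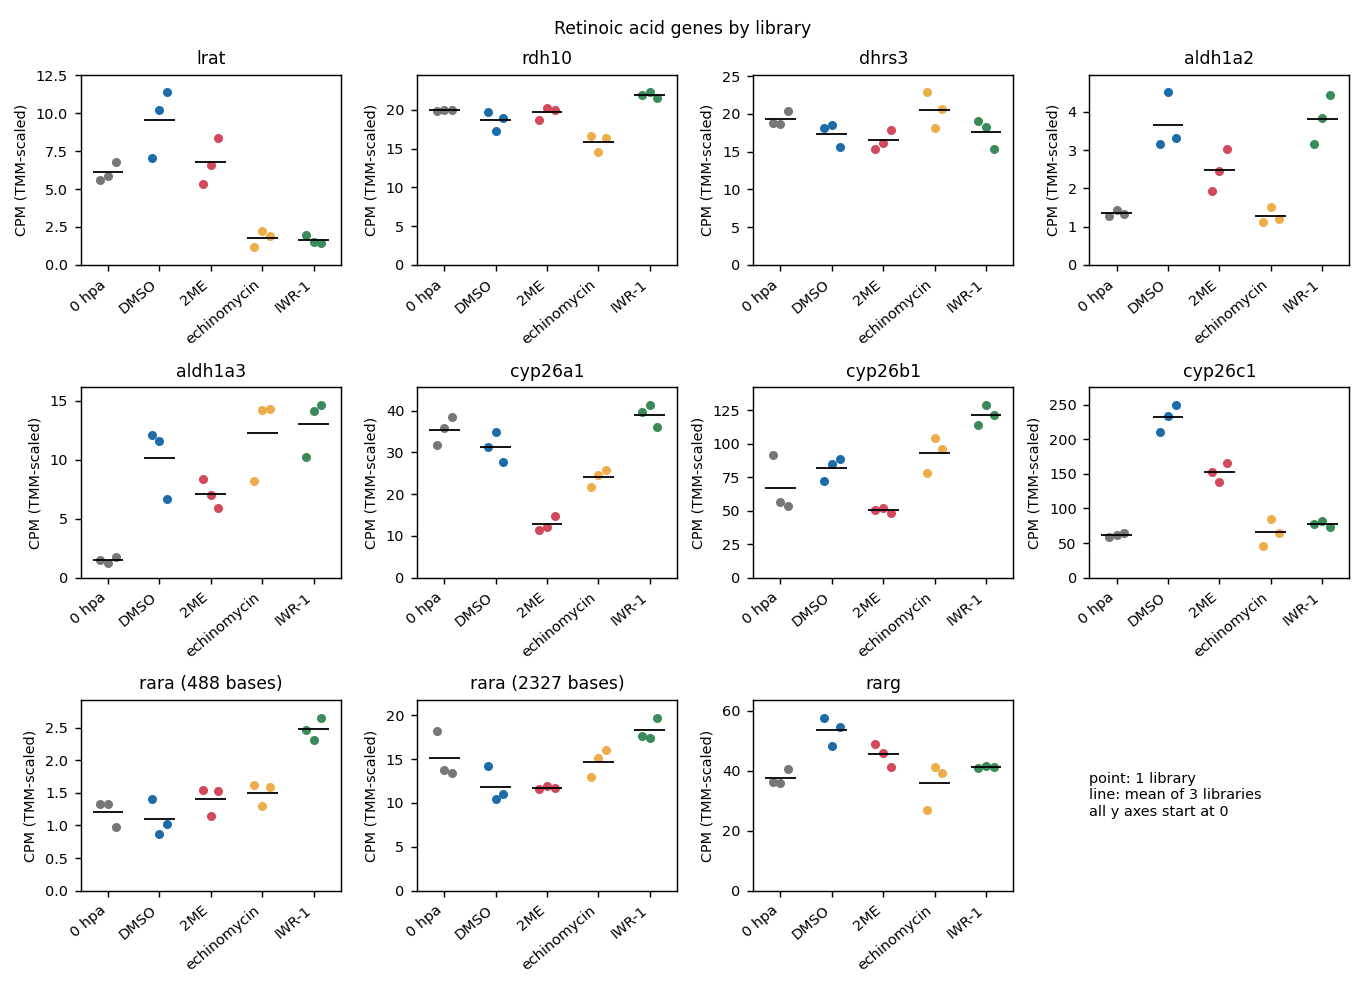
TMM-scaled CPM (y axes, all from 0) of each of the 11 models in every library, by group (x axes), with 1 point per library and a line at the group mean. DMSO libraries are the highest for cyp26c1, 2ME libraries the lowest for cyp26a1 and cyp26b1, and echinomycin and IWR-1 libraries the lowest for lrat.

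The 3 cyp26 genes can be set against each other only per length, as TPM (length-scaled abundance, with no TMM factor). Their summed level was 56.5 ± 2.22 TPM at 0 hpa, 98.0 ± 7.41 with DMSO, 69.3 ± 5.02 with 2ME, 61.7 ± 12.6 with echinomycin and 86.8 ± 6.48 with IWR-1. At 0 hpa cyp26a1 held the greatest share of that sum, 43.8% ± 5.24, with 26.4% ± 7.36 for cyp26b1 and 29.8% ± 2.12 for cyp26c1. With DMSO cyp26c1 held 60.9% ± 2.13, cyp26a1 21.3% ± 2.75 and cyp26b1 17.8% ± 0.749.

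The make-up of the family also parted the compounds. With 2ME the share of cyp26c1 was 67.1% ± 1.81 and that of cyp26a1 14.5% ± 1.31. With echinomycin the shares of cyp26a1, cyp26b1 and cyp26c1 were 30.8% ± 3.39, 37.8% ± 1.01 and 31.5% ± 4.38, and with IWR-1 36.2% ± 1.22, 36.0% ± 1.63 and 27.8% ± 0.424. In both of these groups cyp26c1 held less of the sum in every library than in any library with DMSO or 2ME. These shares were not tested. In the reference annotation of the UCB_Xtro_10.0 assembly cyp26a1 and cyp26c1 are direct neighbours, and cyp26b1 lies apart from both.

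**Figure D3:**
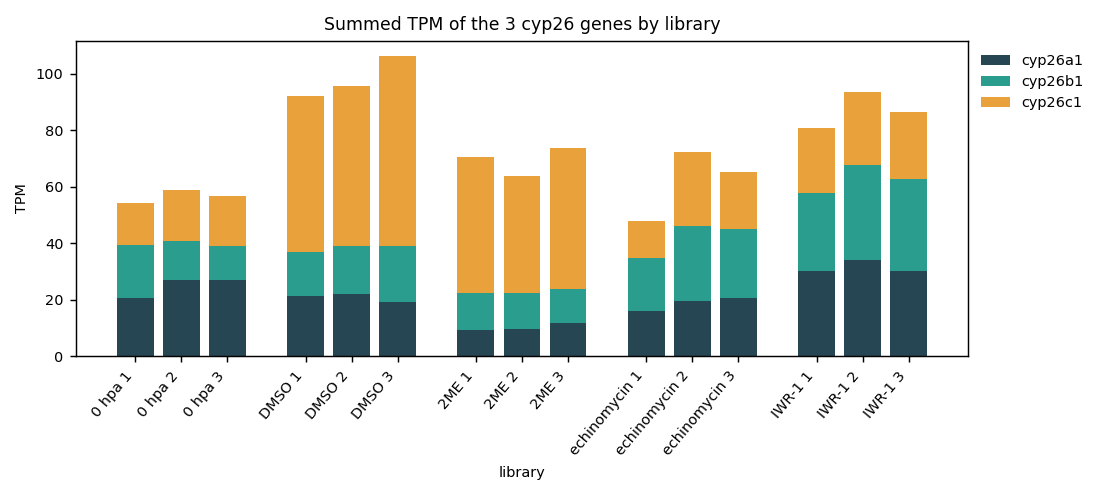
TPM of cyp26a1, cyp26b1 and cyp26c1 stacked for each of the 15 libraries (x axis) with a y axis from 0. The cyp26c1 part is more than that of both other genes together in the DMSO and 2ME libraries, while the 3 parts are of like size in the echinomycin and IWR-1 libraries.

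Of the genes of retinoic acid synthesis, aldh1a3, a retinaldehyde dehydrogenase, had the greatest fold change from 0 hpa to DMSO among the 11 models. It was at 1.48, 1.22 and 1.72 CPM at 0 hpa and at 12.1, 11.6 and 6.67 CPM with DMSO. It was at 8.41, 7.0 and 5.94 CPM with 2ME, at 8.18, 14.2 and 14.3 CPM with echinomycin and at 10.3, 14.2 and 14.7 CPM with IWR-1. All 24 hpa libraries lay above all 0 hpa libraries, and each compound's libraries overlapped those with DMSO. The rise to DMSO was 6.91-fold (log2 ratio 2.79 ± 0.30, adjusted p = 4.87e-07). Against DMSO the ratios were -0.50 ± 0.24 with 2ME (adjusted p = 0.122), 0.28 ± 0.23 with echinomycin (0.318) and 0.37 ± 0.23 with IWR-1 (0.203). Without DMSO replicate 3, the lowest of its group, the 2ME ratio was -0.72 and called (adjusted p = 0.0236).

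A related dehydrogenase gene, aldh1a2, the main source of retinoic acid in the trunk of vertebrate embryos, was at a low level in all groups. It was at 1.27, 1.43 and 1.34 CPM at 0 hpa and at 3.14, 4.52 and 3.31 CPM with DMSO. It was at 1.92, 2.46 and 3.02 CPM with 2ME, at 1.11, 1.52 and 1.19 CPM with echinomycin and at 3.17, 3.85 and 4.43 CPM with IWR-1. The echinomycin libraries straddled the range at 0 hpa, and the IWR-1 libraries within that with DMSO. From 0 hpa to DMSO aldh1a2 rose 2.71-fold (log2 ratio 1.44 ± 0.23, adjusted p = 4.37e-05), and with echinomycin it fell 2.86-fold below DMSO (-1.52 ± 0.23, adjusted p = 3.52e-05). With IWR-1 the ratio to DMSO was 0.057 ± 0.20 (adjusted p = 0.847). The fall with 2ME (-0.57 ± 0.21, adjusted p = 0.0474) was lost under most alternatives, whose adjusted p ran from 0.0283 to 0.258, the highest being that without DMSO replicate 2.

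Transcripts of aldh1a2 and aldh1a3 were scarce next to those of aldh1a1, a related retinaldehyde dehydrogenase gene. In TPM, aldh1a2 and aldh1a3 together summed to 0.803 ± 0.0755 at 0 hpa, 3.75 ± 0.786 with DMSO, 3.11 ± 0.316 with 2ME, 4.37 ± 1.34 with echinomycin and 5.60 ± 1.24 with IWR-1. The level of aldh1a1 was 64.8 ± 6.61 TPM at 0 hpa, 94.7 ± 10.1 with DMSO, 86.9 ± 3.18 with 2ME, 89.9 ± 9.95 with echinomycin and 86.7 ± 5.63 with IWR-1.

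Among the genes that handle retinol, lrat showed the greatest folds against DMSO of any of the 11 models with echinomycin and with IWR-1, but not with 2ME. It was at 5.59, 5.88 and 6.81 CPM at 0 hpa and at 7.08, 10.2 and 11.4 CPM with DMSO. It was at 5.35, 6.61 and 8.40 CPM with 2ME, at 1.20, 2.26 and 1.94 CPM with echinomycin and at 1.98, 1.5 and 1.45 CPM with IWR-1. The echinomycin and IWR-1 libraries overlapped each other and lay below all 9 others. Against DMSO lrat fell 5.32-fold with echinomycin (log2 ratio -2.41 ± 0.24, adjusted p = 5.09e-07) and 5.84-fold with IWR-1 (-2.55 ± 0.24, adjusted p = 6.09e-07). Both groups were also below 0 hpa, by log2 ratios of -1.75 ± 0.25 (adjusted p = 1.16e-05) and -1.89 ± 0.25 (5.40e-06). The rise from 0 hpa to DMSO (0.66 ± 0.21, adjusted p = 0.0121) was lost without DMSO replicate 3 (0.49, 0.0765). With 2ME the ratio to DMSO was -0.50 ± 0.20 (adjusted p = 0.0730), and it was called without DMSO replicate 1 (-0.66, 0.0280) and without 2ME replicate 3 (-0.69, 0.0337).

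The retinol dehydrogenase gene rdh10 and the reductase gene dhrs3, whose products catalyse opposite steps, varied least. Over the 15 libraries rdh10 lay between 14.6 and 22.3 CPM, with means of 20.0 ± 0.0729 at 0 hpa, 18.7 ± 1.25 with DMSO, 19.7 ± 0.848 with 2ME, 15.9 ± 1.12 with echinomycin and 21.9 ± 0.411 with IWR-1. Against DMSO it fell with echinomycin (log2 ratio -0.23 ± 0.078, adjusted p = 0.0200) and rose with IWR-1 (0.23 ± 0.077, adjusted p = 0.0232). Neither call held under every alternative. That with echinomycin was lost with upper-quartile factors (adjusted p = 0.190), without a scaling factor (0.394), with only the 2 groups fitted (0.119), by limma (0.358) and without DMSO replicate 1 (0.117), DMSO replicate 3 (0.0747) or echinomycin replicate 2 (0.0993). That with IWR-1 was lost with no filter on low counts (0.0595) and without DMSO replicate 2 (0.0946) or IWR-1 replicate 2 (0.0739).

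In vertebrate embryos dhrs3 is itself induced by retinoic acid. It lay between 15.3 and 22.9 CPM, with means of 19.3 ± 0.932 at 0 hpa, 17.4 ± 1.58 with DMSO, 16.5 ± 1.3 with 2ME, 20.5 ± 2.42 with echinomycin and 17.6 ± 1.97 with IWR-1. No comparison with DMSO was called. The ratio nearest to a call was that of echinomycin (log2 0.24 ± 0.11, adjusted p = 0.0727), which was called with upper-quartile factors (0.34, 0.0124), without a scaling factor (0.39, 0.00479), by limma (0.36, 0.00566) and without echinomycin replicate 2 (0.32, 0.0270).

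Of the receptor genes, rarg was at 36.0, 36.0 and 40.5 CPM at 0 hpa and at 57.7, 48.1 and 54.6 CPM with DMSO. It was at 49.0, 45.9 and 41.1 CPM with 2ME, at 27.0, 41.1 and 39.2 CPM with echinomycin and at 40.8, 41.5 and 41.1 CPM with IWR-1. The DMSO libraries lay above all those at 0 hpa, with echinomycin and with IWR-1, and overlapped those with 2ME. From 0 hpa to DMSO rarg rose 1.43-fold (log2 ratio 0.51 ± 0.12, adjusted p = 0.00132). Against DMSO it fell with echinomycin (-0.58 ± 0.12, adjusted p = 0.000637) and with IWR-1 (-0.38 ± 0.12, adjusted p = 0.0158). The IWR-1 call was lost without a scaling factor (-0.22, adjusted p = 0.174), by limma (-0.21, 0.232) and without DMSO replicate 1 (-0.31, 0.0787) or 3 (-0.35, 0.0502). With 2ME the ratio was -0.24 ± 0.12 (0.138).

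Another model, rarg-like.1, can share reads with rarg, so the split between them is uncertain. It was at 58.1 ± 5.54 CPM at 0 hpa, 99.0 ± 11.7 with DMSO, 67.3 ± 5.16 with 2ME, 79.7 ± 3.27 with echinomycin and 69.5 ± 2.35 with IWR-1. It rose from 0 hpa to DMSO (log2 ratio 0.77 ± 0.086, adjusted p = 6.45e-07) and fell with each compound, by 0.56 ± 0.084 with 2ME (adjusted p = 0.000169), by 0.31 ± 0.084 with echinomycin (0.00491) and by 0.51 ± 0.084 with IWR-1 (0.000142). The echinomycin call was lost without a scaling factor (adjusted p = 0.115), by limma (0.170) and without DMSO replicate 2 (0.0542). Counted together, the 2 models fell with 2ME by 0.42 ± 0.067 (adjusted p = 0.000279), an alternative chosen after seeing the data. Both models also had lower means with echinomycin and with IWR-1 than with DMSO, so lower levels of the 2 together are not particular to 2ME.

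The other receptor gene, rara, is represented mainly by its long model. That model was at 18.2, 13.8 and 13.4 CPM at 0 hpa and at 14.2, 10.4 and 11 CPM with DMSO. It was at 11.6, 11.9 and 11.7 CPM with 2ME, at 12.9, 15.1 and 16.0 CPM with echinomycin and at 17.7, 17.4 and 19.7 CPM with IWR-1. The IWR-1 libraries lay above all others but replicate 1 at 0 hpa. With IWR-1 it rose 1.55-fold over DMSO (log2 ratio 0.63 ± 0.13, adjusted p = 0.00101). Its fall from 0 hpa to DMSO (-0.35 ± 0.13, adjusted p = 0.0290), between groups that overlapped, was lost without 0 hpa replicate 1 (-0.22, 0.155), without DMSO replicate 2 (-0.29, 0.104) or 3 (-0.32, 0.0770) and with only the 2 groups fitted (-0.37, 0.0606).

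With echinomycin the long rara model gave a ratio to DMSO of 0.31 ± 0.13 (adjusted p = 0.0572), which 9 of its alternatives called, among them DESeq2 (0.33, 0.0449) and both rara models counted together (0.33, 0.0436). With 2ME it was -0.011 ± 0.13 (0.961). The short rara model was at a low level, with means of 1.21 ± 0.206 CPM at 0 hpa, 1.1 ± 0.276 with DMSO, 1.41 ± 0.231 with 2ME, 1.5 ± 0.173 with echinomycin and 2.48 ± 0.175 with IWR-1. It rose with IWR-1 as well (log2 ratio 1.18 ± 0.23, adjusted p = 0.000690), and the IWR-1 libraries, at 2.31 to 2.66 CPM, lay above all 12 others. Estimated counts of both rara models were whole in every library, which gives no sign of reads divided between the 2. Whether each read was given to the right model was not tested. Estimated counts of aldh1a3 and cyp26b1 were whole in no library, and those of cyp26a1 in only some. Reads of these genes may thus be divided with other models, also in the sums and shares given above, which was not tested.

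The remaining comparisons set the compounds against 0 hpa and against each other, at doses that differ. Against 0 hpa, 6 of the 11 models were called with 2ME (3 higher, 3 lower), against 56.7% of all models (28.8% and 27.9%). With echinomycin 5 were called (2 higher, 3 lower), against 55.8% (27.6% and 28.2%), and with IWR-1 5 (4 higher, 1 lower), against 55.2% (27.2% and 28%). The IWR-1 count was 10 without a scaling factor and 9 by limma. Between 2ME and echinomycin 9 were called, against 44.1% of all models, with lrat, rdh10, aldh1a2, cyp26c1 and rarg higher with 2ME (22.8% of all models) and dhrs3, aldh1a3, cyp26a1 and cyp26b1 lower (21.3%). With any 1 library left out, 7 or 8 were called. The call of dhrs3 was lost without 2ME replicate 1 or 2 or echinomycin replicate 1 or 3 (adjusted p of 0.0565 to 0.110), and that of aldh1a3 without 2ME replicate 3 or echinomycin replicate 2 or 3 (0.0548 to 0.0565). The call of rarg was lost with upper-quartile factors (0.0872), with only the 2 groups fitted (0.0757), by limma (0.0552) and without 2ME replicate 1 or 2 or echinomycin replicate 1 (0.0643 to 0.133). Counted with rarg-like.1, rarg gave a log2 ratio of -0.042 there instead of 0.34.

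Between 2ME and IWR-1 8 were called, against 22.5% of all models, with lrat and cyp26c1 higher with 2ME (11.1%) and aldh1a2, aldh1a3, cyp26a1, cyp26b1 and both rara models lower (11.4%). That count fell to 5 without IWR-1 replicate 3. The greatest of these differences were those of lrat (2.04 ± 0.24, edgeR adjusted p = 1.41e-05), cyp26a1 (-1.61 ± 0.11, 5.81e-08) and cyp26b1 (-1.27 ± 0.15, 1.55e-05). Between echinomycin and IWR-1 4 were called, against 34.8% of all models (16.2% higher, 18.6% lower), and rdh10, aldh1a2, cyp26a1 and the short rara model were the 4, all lower with echinomycin. The ratio for lrat was 0.13 ± 0.28 (adjusted p = 0.746) and that for cyp26c1 -0.25 ± 0.14 (0.197).

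The order of the 5 groups differed between genes. For cyp26c1 the lowest 3 group means, 0 hpa, echinomycin and IWR-1, did not differ from neighbour to neighbour, and 2ME (adjusted p = 0.000116 against IWR-1) and then DMSO (0.00419 against 2ME) stood above. For lrat the order was IWR-1, echinomycin, 0 hpa, 2ME, DMSO, and only the step from echinomycin to 0 hpa was called (1.16e-05). For aldh1a2 echinomycin and 0 hpa were lowest and did not differ (0.816), 2ME lay above 0 hpa (0.00510), and DMSO and IWR-1 were highest and did not differ (0.847). For cyp26a1 the order was 2ME, echinomycin, DMSO, 0 hpa, IWR-1, with steps called from 2ME to echinomycin (7.07e-06) and on to DMSO (0.00721). For cyp26b1 only the step from 2ME, the lowest, to 0 hpa was called (0.0308, but 0.314 without 0 hpa replicate 1), and for aldh1a3 only that from 0 hpa, the lowest, to 2ME (6.76e-06). For rdh10 only the step from echinomycin, the lowest, to DMSO was called (0.0200). For rarg, dhrs3 and the long rara model no step between neighbours was called, and for the short one only that from echinomycin to IWR-1 (0.0186, but 0.0717 without echinomycin replicate 2 and 0.0617 without IWR-1 replicate 3). These adjusted p-values are edgeR's, over all models in each comparison, and a step that was not called does not show that the groups are alike.

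The genes whose pattern was most like each member's were found by the root mean square difference of the 5 group means of log2 CPM, each centred on its mean, among 11397 named models. With cyp26c1 these were the homeobox genes hoxa13 (difference 0.159) and dlx4 (0.192) and bambi (0.194), a pseudoreceptor of the TGF-beta family. The level of hoxa13 was 12.7, 37.3, 26.1, 11 and 16.6 CPM at 0 hpa and with DMSO, 2ME, echinomycin and IWR-1, and that of bambi 70.4, 291, 260.2, 84.4 and 106 CPM. With lrat the nearest was the growth factor gene fgf8 (0.155), at 6.81, 10.6, 8.32, 2.19 and 2.47 CPM, followed at a greater distance by mapt (0.458) and hacd1 (0.470).

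The nearest to aldh1a3 were the matrix metalloprotease gene mmp7 (0.121), at 15.2, 92.0, 59.4, 111 and 101 CPM in the same group order, napsa (0.177) and mt4 (0.190). The nearest to aldh1a2 were asic2 (0.111), pemt (0.235) and ftsj3 (0.237). Those of cyp26a1 were g6pc.1 (0.200), znf219 (0.288) and the chemokine gene cxcl14 (0.294), and those of cyp26b1 were vwa1 (0.170), g6pc.3 (0.173) and tnfaip6 (0.177). For rarg they were mbtd1, cdyl and pfdn6, for the long rara model st6gal1, sema3c and npnt, and for the short one fut2, sntb1 and kbtbd11, at differences of 0.0164 to 0.0803. For rdh10 and dhrs3, whose group means spanned less than 0.5 on the log2 scale, none were sought. This likeness rests on 5 group means and is a description.

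**Figure D4:**
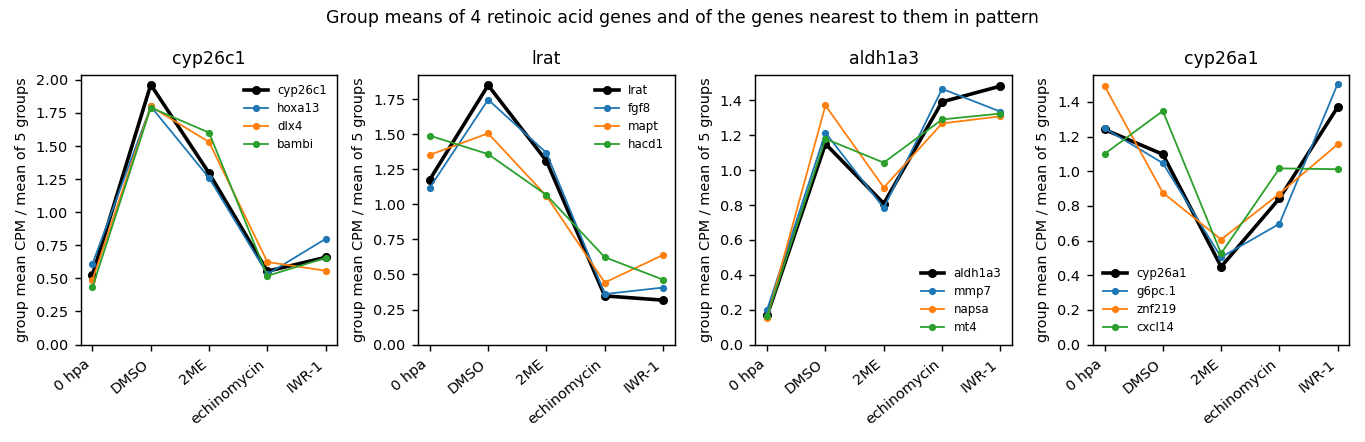
Group mean CPM divided by the mean of the 5 groups (y axes, from 0) in each group (x axes), for cyp26c1, lrat, aldh1a3 and cyp26a1 in black and the 3 genes nearest to each in colour. The line of hoxa13 runs close to that of cyp26c1, peaking with DMSO, and that of fgf8 close to that of lrat, lowest with echinomycin and IWR-1.

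Other genes of the pathway were taken from lists. Of 27 tested models that carry, store or convert retinoids, 8 rose and 10 fell from 0 hpa to DMSO, with a median log2 ratio of -0.14 against 0.00135 for all models (4 and 12 with upper-quartile factors). The count is near the 63% called among all models, and it was 10 in place of 18 without DMSO replicate 2. The retinoic acid carrier gene crabp2 fell from 81.6 ± 5.33 to 18.0 ± 4.88 CPM (log2 ratio -2.19 ± 0.17, adjusted p = 6.23e-09). The dehydrogenase gene aldh1a1 rose from 143 ± 6.78 to 220.0 ± 16.2 CPM (0.62 ± 0.091), and stra6, a receptor through which cells take up retinol, fell from 10.9 ± 2.03 to 6.33 ± 1.21 CPM (-0.79 ± 0.17).

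Against DMSO 2 of the 27 rose and 4 fell with 2ME, 8 and 6 with echinomycin, and 1 and 6 with IWR-1, where 30.5%, 51.6% and 42.3% of all models were called. The echinomycin count is near that background and the other counts are below it. The number called was 3 for 2ME without 2ME replicate 3, 8 for echinomycin without DMSO replicate 3, and 2 to 6 for IWR-1 when any 1 library was left out, with 3 or fewer without DMSO replicate 1, 2 or 3 or IWR-1 replicate 2 or 3. Without a scaling factor these became 3 and 2 for 2ME and 6 and 1 for IWR-1, and for IWR-1 RLE factors gave 2 and 3 and upper-quartile factors 3 and 3. The medians were -0.048, 0.14 and -0.0056 (0.092, 0.29 and 0.15 without scaling), against -0.021, 0.014 and -0.016 for all models. Relative to DMSO aldh1a1 fell with 2ME to 171 ± 4.89 CPM (log2 ratio -0.36 ± 0.090, adjusted p = 0.00607) and with IWR-1 to 168 ± 19.4 CPM (-0.39 ± 0.090, 0.00227), and it fell with echinomycin to 179.8 CPM (-0.29, 0.0123). By limma none of these 3 was called (adjusted p = 0.0879, 0.0617 and 0.202). Without a scaling factor the fall with 2ME (0.0538) and the fall with echinomycin (0.164) were lost. The limma ratios were near those without a scaling factor (-0.22 and -0.23 with 2ME, -0.15 and -0.15 with echinomycin). The fall with echinomycin was also lost with upper-quartile factors (0.0836) and without DMSO replicate 3 (0.0779) or echinomycin replicate 3 (0.0781). The carrier gene crabp2 rose with echinomycin to 33.1 ± 2.39 CPM (log2 ratio 0.88 ± 0.17, adjusted p = 0.000331). The enzyme gene dgat1, which also can esterify retinol, fell with echinomycin from 16.0 ± 0.419 to 10.1 ± 1.29 CPM (-0.65 ± 0.12, adjusted p = 0.000250).

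All 20 listed receptor and cofactor models were tested. From 0 hpa to DMSO 5 rose and 5 fell, with a median log2 ratio of 0.061 (3 and 5, with a median of -0.032, under upper-quartile factors). That is below the 63% called among all models, and 6 were called without 0 hpa replicate 2 or DMSO replicate 2. The coactivator gene ppargc1a fell from 74.0 ± 4.09 to 9.05 ± 1.49 CPM (log2 ratio -3.04 ± 0.15, adjusted p = 2.77e-11). Against DMSO 4 rose and 4 fell with 2ME, 8 and 4 with echinomycin, and 7 and 2 with IWR-1, with medians of 0.11, 0.076 and 0.14, against 30.5%, 51.6% and 42.3% of all models called. The 8 called with 2ME became 3 without DMSO replicate 2 and 5 without 2ME replicate 1. Without a scaling factor these were 11 and 0, 10 and 2, and 12 and 1, and upper-quartile factors gave 6 and 3 for 2ME and 10 and 3 for echinomycin.

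The partner receptor gene rxra, which fell with echinomycin, went from 30.5 ± 4.53 to 21.9 ± 2.01 CPM (log2 ratio -0.48 ± 0.11, adjusted p = 0.00138). With 2ME rxra fell as well, to 24.0 CPM (-0.35, adjusted p = 0.0207). The coactivator gene ncoa3, at 12.6 ± 4.13 CPM with DMSO, rose to 24.8 ± 4.02 with 2ME, 24.9 ± 4.32 with echinomycin and 31.4 ± 6.46 with IWR-1 (0.98 ± 0.22, 0.98 ± 0.22 and 1.32 ± 0.22). The third retinoic acid receptor gene, rarb, a retinoic acid target in many tissues, had group means of 0.528 to 0.688 CPM and was called in none of these 4 comparisons, with adjusted p of 0.522 to 0.954.

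A list of genes known as retinoic acid targets in vertebrate embryos, many of them Hox genes of the hindbrain and trunk, had 33 tested models. From 0 hpa to DMSO 11 rose and 15 fell, against 32.2% of all models called higher and 30.8% lower, with a median log2 ratio of 0.078, which was -0.014 with upper-quartile factors. With 2ME none was called higher and 13 fell, against 14% and 16.5% of all models, with a median of -0.35 against -0.021 for all models. At an unadjusted p under 0.05 edgeR had 3 higher and 16 lower. DESeq2 called 0 and 12, limma 3 and 8, the test without a scaling factor 4 and 8, and that with upper-quartile factors 2 and 11, and the number called was 8 without DMSO replicate 1 or without 2ME replicate 1. With echinomycin 9 rose and 10 fell, near the background of 24.6% and 27%, with a median of -0.025 (11 and 6, with 0.076, under upper-quartile factors, and 11 and 4, with 0.12, without scaling). With IWR-1 7 rose and 8 fell, near the background of 19.9% and 22.4%, with a median of 0.0089 (12 and 8 without scaling).

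The anterior Hox gene hoxa3 rose from 30.9 ± 1.34 CPM at 0 hpa to 54.4 ± 2.34 with DMSO (log2 ratio 0.82 ± 0.068, adjusted p = 1.76e-08). Against DMSO it fell by 0.67 ± 0.066 with 2ME (adjusted p = 2.94e-06), by 0.45 ± 0.066 with echinomycin (3.15e-05) and by 0.73 ± 0.066 with IWR-1 (4.62e-07). Its neighbour in the series of Hox genes, hoxa2, was at 5.76 ± 0.215 CPM with DMSO and fell to 2.37 ± 0.807 with 2ME and 2.26 ± 0.448 with IWR-1. The cofactor gene meis2 fell from 61.9 ± 1.53 CPM at 0 hpa to 20.5 ± 1.97 with DMSO (-1.60 ± 0.097) and to 14.4 ± 1.39 with 2ME (-0.51 ± 0.10, adjusted p = 0.00156). The transglutaminase gene tgm2 rose with IWR-1 from 22.9 ± 3.92 to 44.7 ± 6.62 CPM (0.97 ± 0.14, adjusted p = 5.57e-05). It also rose with echinomycin, to 34.8 CPM (0.61, adjusted p = 0.00215), and its mean at 0 hpa was 59.4 CPM.

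The list of posterior progenitor genes, some of which act against retinoic acid in the vertebrate tailbud, had 10 tested models. Whether any of them did so here was not tested. From 0 hpa to DMSO 7 rose and 1 fell, against 32.2% of all models called higher and 30.8% lower, with a median log2 ratio of 0.84. The stem cell factor gene sall4 rose from 12.5 ± 1.51 to 68.3 ± 3.11 CPM (2.44 ± 0.083, adjusted p = 6.12e-13), and cdx2, a posterior homeobox gene, rose from 12.6 ± 0.870 to 58.2 ± 4.04 CPM (2.20 ± 0.17, adjusted p = 7.28e-09). With 2ME 1 rose and 1 fell, with a median of -0.20 (1 and 0 without scaling), with echinomycin 1 and 6 (median -0.37, with 1 and 4 under upper-quartile factors or without scaling, at medians of -0.27 and -0.23, and 1 and 3 by limma, at -0.11), and with IWR-1 1 and 5 (median -0.65, with 2 and 5 under upper-quartile factors or without scaling). Among all models 30.5%, 51.6% and 42.3% were called in these 3 comparisons.

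Among the posterior genes fgf8 fell from 10.6 ± 1.74 CPM with DMSO to 2.19 ± 0.0678 with echinomycin (log2 ratio -2.27 ± 0.17, adjusted p = 3.44e-08) and to 2.47 ± 0.0412 with IWR-1 (-2.10 ± 0.17, adjusted p = 1.08e-07). The level of cdx2 fell to 24.7 ± 6.80 and 24.1 ± 5.51 CPM (-1.23 ± 0.16 and -1.27 ± 0.16). With echinomycin tbxt, the notochord and tailbud gene also known as brachyury, rose from 6.54 ± 1.06 to 12.0 ± 0.835 CPM (0.87 ± 0.15, adjusted p = 0.000139). Models that are in more than one list were counted in each.

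**Figure D5:**
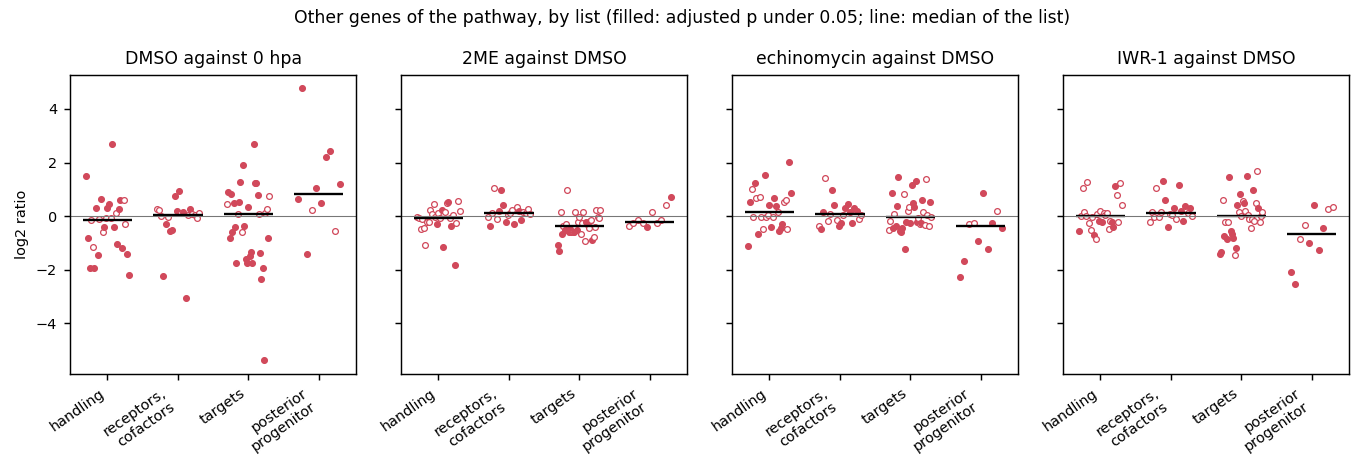
Log2 ratio (y axis) of each tested model in the 4 other pathway lists (x axis) for DMSO against 0 hpa and for each compound against DMSO, with 1 point per model, filled for an adjusted p under 0.05, and a line at the list's median. The median of the target list lies at -0.35 with 2ME, and those of the posterior progenitor list at 0.84 in the first panel and at -0.37 and -0.65 with echinomycin and IWR-1.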

How the data were processed

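The 15 samples were grouped by their titles. Per the submitters' processing notes, reads were trimmed with Trim Galore 0.6.5 and quantified with kallisto, and edgeR was used. No version of kallisto or of the authors' edgeR is stated in the sources used here. Per the file headers, the deposited estimated counts are kallisto's, for 1 transcript per gene model of the XT-9_1 annotation, and 21.4% of them are not whole (tolerance 1e-06). TPM values as deposited, per the file headers, divide these by effective length. Here they serve to compare genes with each other and to give sums and shares of related genes in each group. Differences in TPM between groups were not tested. The authors' deposited CPM table holds 15892 models and is the estimated counts multiplied by 1 constant for each library.

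The main test rounded the estimated counts and used edgeR 4.0.16 under R 4.3.3: all 15 libraries, 1 coefficient per group, TMM factors, filterByExpr (minimum count 10, total 15), quasi-likelihood F test, common biological coefficient of variation 0.0936 with 10 residual degrees of freedom, and Benjamini-Hochberg adjustment in each of 10 comparisons. Standard errors come from the F statistic. Alternatives were DESeq2 1.42.0, limma 3.58.1 on log2(CPM + 1) of the authors' table, no scaling factor, upper-quartile or RLE factors, no filter, a mean of at least 10 counts, a fit of just the 2 groups, a replicate block, an offset of the deposited effective length, each library left out, and, added after seeing the data, both rara models or rarg and rarg-like.1 counted together. The fit was tested on simulated data in which few models were changed, so that test does not bear on the choice of scaling.

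The members and lists were chosen with earlier results of these data known. From each list up to 5 called members per comparison with the smallest adjusted p and at least 5 CPM in a group could be named; rarb was named after its values were seen. One gene that this rule names is not reported here. Of 199 symbols in the lists and marker sets 190 were found, 8 through synonyms of a RefSeq table (UCB_Xtro_10.0). Genes of like pattern needed 5 CPM in a group and a prior count of 2. No sequences were used.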

Additional observations from a re-analysis of the deposited data

How the results depend on the processing

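Counts of called retinoic acid genes stayed within 1.5 times of the reported count in 157 of 160 recomputations over the 10 comparisons, and counts over all models in 159 of 160. Counts over the other lists did so in 235 of 256 and moved further in 21. The exceptions among the first 2 were IWR-1 against 0 hpa, with 10 called without a scaling factor and 9 by limma instead of 5, and 2ME against IWR-1, with 5 to 8 called when each library was left out (8 reported, 5 without IWR-1 replicate 3). For 2ME against DMSO, 3766 to 5368 models were called when a library was left out, against 5749 with all, the lowest without DMSO replicate 2. Of 2504 recomputed single log2 ratios 2316 kept direction and call, 146 lost the call, 26 gained it and 16 changed sign.

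Of these 16, 15 concern ratios that were not called. For 2ME against DMSO they were dhrs3 (0.063 without a scaling factor, 0.059 by limma) and the long rara model (0.0094 with upper-quartile factors, 0.13 without a scaling factor, 0.0097 with only the 2 groups, 0.0025 with the length offset, 0.12 by limma, -0.084 to 0.14 without each library, 0.14 being that without DMSO replicate 1, and 0.025 with both models together). For IWR-1 against DMSO they were dhrs3 (-0.047 to 0.10 without each library, below 0 without DMSO replicate 3, IWR-1 replicate 1 or IWR-1 replicate 2) and aldh1a2 (-0.062 to 0.25 without each library, below 0 without DMSO replicate 1, DMSO replicate 3 or IWR-1 replicate 3). The called one was rarg in 2ME against echinomycin (0.34), which was -0.042 counted with rarg-like.1. The cause was not tested.

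Replicate numbers are shared between groups, but same-numbered libraries did not deviate together: over 30 pairs their correlations ran from -0.14 to 0.13, and in 0 of the 10 comparisons did every pair pass 0.1. With the number as a replicate block, lrat with 2ME was called (-0.50, adjusted p = 0.0482), and no other call of a gene named in the text changed. The calls of rxra with 2ME and of tgm2 with echinomycin were not among those looked at.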
